A study of Homo sapiens with 36 samples.

Results

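The genes of homologous recombination, the Fanconi anaemia pathway and mismatch repair were followed in neuroblastoma cells after transfection with siRNAs against HDAC11, a histone deacetylase. The set was defined by gene symbol, as 37 named genes, most of them of these pathways and of the checkpoint that serves them. It also holds genes of other repair routes, such as UNG and POLQ. Of these, 33 had a probe under their symbol and are described here through 57 probes, out of 47320 probes and 20045 genes tested in all. The other 4 genes of the set were not analysed here.

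RNA was profiled on 36 bead arrays, 18 each for BE(2)-C and IMR-32 cells. Both are established neuroblastoma cell lines with amplified MYCN, and BE(2)-C cells lack functional p53. In each line, cells received HDAC11 siRNA no. 1, HDAC11 siRNA no. 2 or a single negative control siRNA (AllStars), and were harvested after 42, 48 and 54 h. Every combination of line, siRNA and time had 2 replicates, so that each line held 6 arrays per siRNA. The series calls the replicates biological, but no source used here says whether they came from separate cultures, and p-values then measure the spread between these samples. Both HDAC11 siRNAs were set against the same control arrays, and their effects are therefore given side by side. For siRNA no. 2 the study's reagent list gives the target in the HDAC11 transcript, shown because the effects of the siRNAs on repair genes differ below, and the sequence of no. 1 was not used here.
HDAC11 siRNA no. 2 target: gcgagacttcatggacgacaa

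Homologous recombination copies lost sequence at a DNA break from the sister chromatid, so it runs mainly in S and G2 phase. BRCA1 and BARD1 license resection of the break, PALB2 helps to load the recombinase, and the paralogues of the recombinase, RAD54L and BLM act on the strands that it joins. The Fanconi core complex marks FANCI and its partner with ubiquitin at DNA crosslinks and stalled forks, and USP1 removes the mark. ATM, ATR, CHEK1 and CHEK2 signal the damage, and MSH6 and PMS2 repair copying errors. Transcripts of many of these genes rise at the entry into S phase.

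Signals were quantile-normalized and are given on the log2 scale, on which a probe that was detected on no array had a level of 6.66 to 6.68 (median over such probes, per array). A gene was read from the probe that was detected on most arrays. Between 17095 and 19783 probes were detected per array. Replicates correlated at r = 0.9840 to 0.9937, lowest for the BE(2)-C control at 54 h, where replicate 1 stood apart from the other arrays of its line. The HDAC11 probe was detected on 2 arrays, both IMR-32 controls, and lay between 6.59 and 7.09 throughout, so it does not check the knockdown. The labelled cell type had its adrenergic markers HAND2, GATA3, DBH and TH detected on all 6 control arrays of each line. DBH and TH were low in IMR-32 (control medians 7.08 and 7.37), against 11.85 and 9.51 in BE(2)-C. Mesenchymal markers were detected in part. SNAI2 was detected on all 6 in both lines, CD44 on 6 and 0, COL1A1 on 1 and 5 and PRRX1 on 1 and 0 control arrays of BE(2)-C and IMR-32. Of the 33 genes, 27 were detected on all 36 arrays, 5 on some and RAD50 on 0. BRIP1 and ATR, detected on 6 arrays and 1 array, were close to background, and these and RAD50 were called in no comparison.

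In control cells, the repair genes differed between the cell lines about as often as other detected genes. Among the 33 genes, 16 were higher in IMR-32 than in BE(2)-C and 7 were lower (limma, adjusted p under 0.05), beside 20.9% higher and 18.9% lower of all genes and 35.7% and 32.5% of genes detected on at least 50% of the arrays. FANCE, a core complex subunit, ranged from 8.55 to 9.58 (median 9.14) on the 6 control arrays of BE(2)-C and from 10.40 to 10.67 (median 10.49) on those of IMR-32. The ranges did not overlap, and the difference was 1.39 ± 0.08 (SE, log2) with adjusted p = 6.92e-13 in limma. MSH6, which recognises mismatches, was higher in IMR-32 by 1.26 ± 0.06, USP1 by 1.12 ± 0.07 and BRCA1 by 1.05 ± 0.07. The genes lower in IMR-32 included PMS2 (-0.76 ± 0.08), the checkpoint kinases CHEK2 (-0.68 ± 0.07) and CHEK1 (-0.44 ± 0.06), and the end-joining polymerase POLQ (-0.59 ± 0.07). Thus BRCA1 and MSH6 started from a higher level in IMR-32, and CHEK1 and POLQ from a higher level in BE(2)-C.

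**Figure D1:**
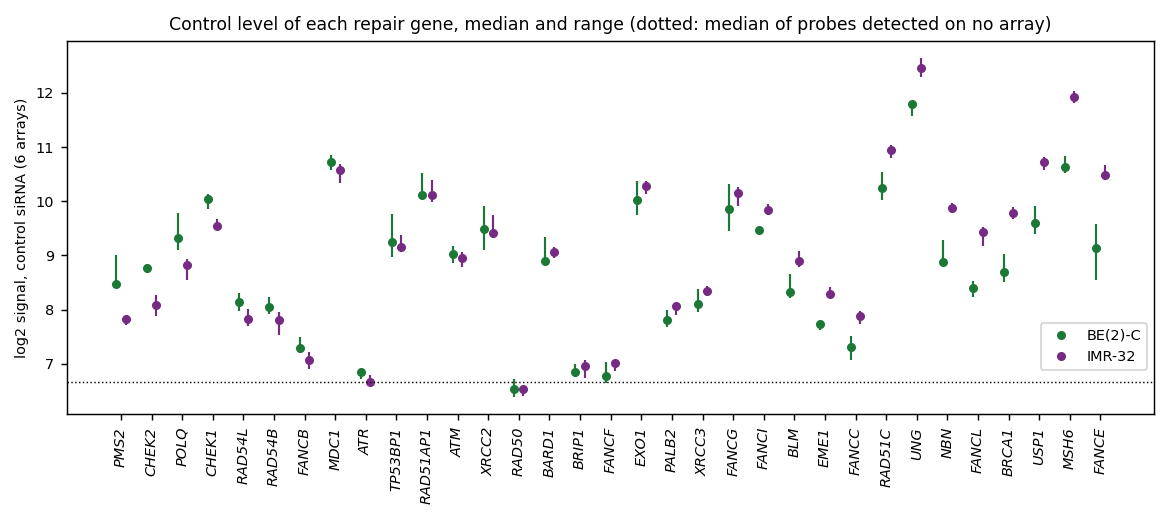
Level of the 33 repair genes in cells with the control siRNA, on the log2 scale; points are medians and lines the range of 6 arrays for BE(2)-C (green) and IMR-32 (purple), and the dotted line is the median of probes detected on no array. Genes are ordered by the difference between the lines, from PMS2 (-0.76) on the left to FANCE (1.39) on the right.

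With HDAC11 siRNA no. 1, most of the repair genes were lower than in control cells, in either cell line. In BE(2)-C, 23 of 33 genes were lower and 2 were higher than with the control siRNA on average over the time points. Among all genes 11.5% were lower and 12.9% higher in this comparison, and among genes detected on at least 50% of the arrays compared (detected genes, below) 21.7% and 24.2%. For IMR-32, 22 were lower and 3 higher, where the shares of all genes were 10.9% and 13.2% and those of detected genes 19.3% and 23.0%. All 22 genes that were lower in IMR-32 were lower in BE(2)-C too, and the overlap among all genes was not counted. XRCC2 was called lower in BE(2)-C alone, but the difference of its effect between the lines was not called. The median log2 fold change of the 33 genes was -0.37 in BE(2)-C and -0.44 in IMR-32, beside 0.00 and 0.01 for all genes. The 8 genes not called in BE(2)-C were PMS2, FANCE, FANCF, ATM, ATR, NBN, RAD50 and BRIP1. In bulk RNA, fewer cells in a cell cycle phase and less RNA per cell cannot be told apart.

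Fewer were called with HDAC11 siRNA no. 2. The BE(2)-C cells had 8 of 33 genes lower and 1 higher, beside 7.52% and 6.39% of all genes and 14.5% and 12.4% of detected genes. When 1 array was left out, the lower count there was 5 to 8, with 4 to 7 of the same 8 genes, and the higher count 1 to 4. It was 5 lower without control replicate 2 at 48 h or siRNA no. 2 replicate 2 at 54 h, and 4 higher without control replicate 1 at 54 h. The IMR-32 cells had 6 lower and 1 higher, beside 7.27% and 6.02% of all genes and 13.2% and 10.9% of detected genes. The median log2 fold change was -0.06 in BE(2)-C and -0.03 in IMR-32. With siRNA no. 1, 14 genes in BE(2)-C, among them TP53BP1 with a rise (0.61), and 13 in IMR-32 changed by more than 1.5-fold. The count with siRNA no. 2 was 0 in both lines, but MDC1 (-0.58) and MSH6 (-0.57) in BE(2)-C fell just short of this fold. The share of all genes past it was not counted.

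**Figure D2:**
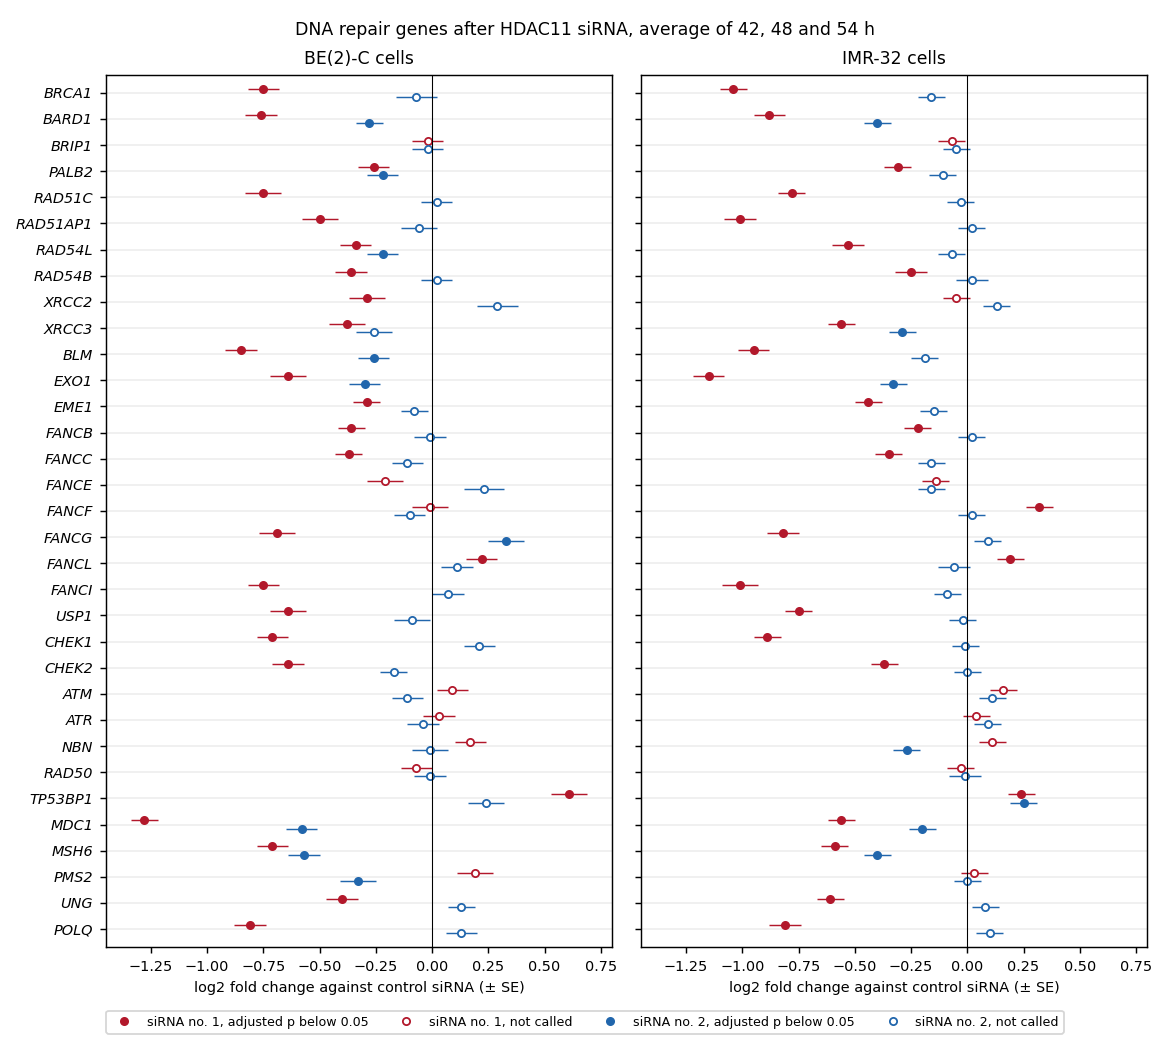
Log2 fold change of each repair gene against the control siRNA, averaged over 42, 48 and 54 h, with its SE, in BE(2)-C (left) and IMR-32 (right). Filled points passed adjusted p 0.05 in limma and open points did not; with siRNA no. 1 (red) 23 and 22 genes were lower, with siRNA no. 2 (blue) 8 and 6.

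Since so many of these genes fell together with siRNA no. 1, their promoters were searched for short elements of cell cycle genes. RefSeq windows (GRCh38.p14, 250 bases before to 50 after a start) were found for 30 of the 33 genes, 44 windows in all. The E2F element was searched as TTTCCCGC, TTTCGCGC, TTTGCCGC and TTTGGCGC on both strands. It was in 7 of 44 windows (15.9%), from 6 genes, beside 3.31% of all 35116 promoter windows and 4.96% of those of detected genes. By response to siRNA no. 1, it was in 4 of 32 windows of genes lower in both lines and in 3 of 12 windows of the other genes. CCAAT was in 23 of 44 windows, beside 34.6% of all windows and 35.6% of those of detected genes. The CHR element TTTGAA was in 7 of 44 (15.9%), beside 15.2% and 10.8%. A match describes these letters only and is no evidence of binding, and windows of 1 gene overlap in part. The 7 distinct sites of these genes are printed with the E2F letters in capitals and 5′ to 3′ on the strand of the gene, as 60 bases with at most 30 past the start, in RefSeq's GRCh38.p14.
EXO1, chr1:241848174-241848233, plus strand: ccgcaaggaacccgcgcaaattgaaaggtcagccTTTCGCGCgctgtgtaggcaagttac
MSH6, chr2:47783115-47783174, plus strand: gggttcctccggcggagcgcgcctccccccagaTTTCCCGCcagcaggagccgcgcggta
UNG, chr12:109098083-109098142, plus strand: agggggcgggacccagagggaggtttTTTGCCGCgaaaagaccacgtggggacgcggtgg
FANCC, near site, chr9:95317722-95317781, minus strand: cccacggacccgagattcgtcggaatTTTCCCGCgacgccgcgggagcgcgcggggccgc
FANCC, far site, chr9:95317848-95317907, minus strand: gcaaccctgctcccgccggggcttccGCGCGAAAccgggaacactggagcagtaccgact
XRCC2, chr7:152676112-152676171, minus strand: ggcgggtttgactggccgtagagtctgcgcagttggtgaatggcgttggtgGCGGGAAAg
PMS2, chr7:6009116-6009175, minus strand: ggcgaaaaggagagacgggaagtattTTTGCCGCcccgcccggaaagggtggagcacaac
EXO1, MSH6, UNG and FANCC fell with siRNA no. 1 in both lines, XRCC2 fell in BE(2)-C, and PMS2 did not fall with it in either line (0.19 ± 0.08 and 0.03 ± 0.06).

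BRCA1 and its partner BARD1, which together form a ubiquitin ligase that starts recombination, both fell with siRNA no. 1. In IMR-32, BRCA1 ranged from 9.68 to 9.90 (median 9.79) on control arrays, from 8.50 to 8.90 (median 8.73) with siRNA no. 1 and from 9.51 to 9.65 (median 9.65) with siRNA no. 2. The BE(2)-C arrays ranged from 8.50 to 9.03 (median 8.69), from 7.85 to 8.23 (median 7.96) and from 8.49 to 9.15 (median 8.59). In both lines all 6 arrays of siRNA no. 1 lay below every control array, while those of siRNA no. 2 overlapped the controls in BE(2)-C and lay just below them in IMR-32. The log2 change with siRNA no. 1 was -1.04 ± 0.06 (2.06-fold, adjusted p = 2.92e-14 in limma) in IMR-32 and -0.75 ± 0.07 (1.68-fold, 3.57e-08) in BE(2)-C. With siRNA no. 2 it was -0.16 ± 0.06 (adjusted p = 0.0876) and -0.07 ± 0.09 (0.796), and neither was called.

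BARD1 was lower with both siRNAs on average over the time points. On BE(2)-C arrays it ranged from 8.87 to 9.34 (median 8.90) on control arrays, from 7.98 to 8.48 (median 8.25) with siRNA no. 1 and from 8.59 to 8.97 (median 8.65) with siRNA no. 2. In IMR-32 the ranges were 8.96 to 9.15 (median 9.06), 7.92 to 8.43 (median 8.16) and 8.48 to 8.84 (median 8.63). The changes were -0.76 ± 0.07 and -0.88 ± 0.07 with siRNA no. 1 and -0.28 ± 0.06 (adjusted p = 0.00556) and -0.40 ± 0.06 (6.99e-06) with siRNA no. 2, in BE(2)-C and IMR-32 in this order. Against siRNA no. 2 directly, siRNA no. 1 left BARD1 lower by 0.48 ± 0.07 and 0.49 ± 0.07 (log2; adjusted p = 1.19e-06 and 1.27e-06 in limma). PALB2, a binding partner of BRCA1, was dimmer (control medians 7.80 and 8.06). It changed by -0.26 ± 0.07 and -0.31 ± 0.06 with siRNA no. 1 and by -0.22 ± 0.07 (adjusted p = 0.0496) and -0.11 ± 0.06 (0.337) with siRNA no. 2. The call with siRNA no. 2 was lost without any of 10 arrays (0.0546 to 0.161).

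Of the paralogues and cofactors of the recombinase, 6 of 6 fell with siRNA no. 1 in BE(2)-C and 5 of 6 in IMR-32. RAD51AP1, which stimulates strand pairing, ranged in IMR-32 from 9.98 to 10.40 (median 10.12) on control arrays, from 8.84 to 9.34 (median 9.16) with siRNA no. 1 and from 10.09 to 10.31 (median 10.12) with siRNA no. 2. The BE(2)-C ranges were 10.06 to 10.52 (median 10.12), 9.49 to 9.96 (median 9.73) and 9.93 to 10.37 (median 10.14). The arrays of siRNA no. 1 lay below all controls in both lines and those of siRNA no. 2 within or across their range. The change with siRNA no. 1 was -1.01 ± 0.07 (adjusted p = 2.89e-13 in limma) in IMR-32 and -0.50 ± 0.08 (6.97e-05) in BE(2)-C. RAD51C, a paralogue with roles in both recombination and the Fanconi pathway, changed by -0.75 ± 0.08 in BE(2)-C and -0.78 ± 0.06 in IMR-32. The translocase genes RAD54L and RAD54B changed by -0.34 ± 0.07 and -0.36 ± 0.07 in BE(2)-C and by -0.53 ± 0.07 and -0.25 ± 0.07 in IMR-32. With siRNA no. 2, RAD54L was also lower in BE(2)-C (-0.22 ± 0.07, adjusted p = 0.038 in limma), a call lost without any of 10 of the 12 arrays (0.0575 to 0.138). The call of RAD54B with siRNA no. 1 in IMR-32 was lost without any of 5 (0.0509 to 0.0911).

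XRCC2 and XRCC3, which act in separate paralogue complexes, were not called alike. XRCC3 changed by -0.38 ± 0.08 and -0.56 ± 0.06 with siRNA no. 1. With siRNA no. 2 it ranged in IMR-32 from 7.82 to 8.25 (median 8.05), against 8.25 to 8.43 (median 8.34) on control arrays, so that the ranges met, and changed by -0.29 ± 0.06 (adjusted p = 0.00118 in limma). In BE(2)-C its change with this siRNA was -0.26 ± 0.08 (adjusted p = 0.0533). With siRNA no. 1, XRCC2 changed by -0.29 ± 0.08 (adjusted p = 0.0148) in BE(2)-C and by -0.05 ± 0.06 in IMR-32. Its call was lost without any of 4 arrays (0.0518 to 0.0877). A second XRCC2 probe, detected on 21 arrays, gave -0.06 in BE(2)-C and was not called.

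BLM, a helicase that dissolves joined strands, and EXO1, a nuclease of both break resection and mismatch repair, both fell with siRNA no. 1. BLM ranged in BE(2)-C from 8.21 to 8.65 (median 8.33) on control arrays, from 7.45 to 7.60 (median 7.52) with siRNA no. 1 and from 8.02 to 8.26 (median 8.09) with siRNA no. 2. In IMR-32 the ranges were 8.79 to 9.09 (median 8.90), 7.77 to 8.27 (median 7.94) and 8.65 to 8.89 (median 8.74). The change with siRNA no. 1 was -0.85 ± 0.07 (adjusted p = 9.47e-10 in limma) and -0.95 ± 0.07 (5.99e-12). With siRNA no. 2 BLM changed by -0.26 ± 0.07 (0.0165) in BE(2)-C and by -0.19 ± 0.06 (0.0668) in IMR-32. The call in BE(2)-C was lost without control replicate 2 at 48 h (0.0727) or siRNA no. 2 replicate 2 at 54 h (0.0834). EME1, a nuclease subunit that cuts joined strands, changed by -0.29 ± 0.06 and -0.44 ± 0.06 with siRNA no. 1.

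EXO1 ranged in IMR-32 from 10.13 to 10.37 (median 10.29) on control arrays, from 8.87 to 9.42 (median 9.09) with siRNA no. 1 and from 9.87 to 9.98 (median 9.94) with siRNA no. 2. These 3 ranges did not overlap. For BE(2)-C they were 9.75 to 10.37 (median 10.03), 9.14 to 9.78 (median 9.44) and 9.53 to 10.14 (median 9.72) and did overlap, the control arrays being highest at 42 h. The change with siRNA no. 1 was -1.15 ± 0.07 (2.21-fold, adjusted p = 6.82e-14 in limma) in IMR-32 and -0.64 ± 0.08 (1.74e-06) in BE(2)-C. With siRNA no. 2 it was -0.33 ± 0.06 (8.35e-05) and -0.30 ± 0.07 (0.00616). A second EXO1 probe, also detected on all 36 arrays, gave -0.87 in IMR-32 and -0.46 in BE(2)-C for siRNA no. 1. For siRNA no. 2 it gave -0.26 in IMR-32 and -0.19 in BE(2)-C, where it was not called.

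**Figure D3:**
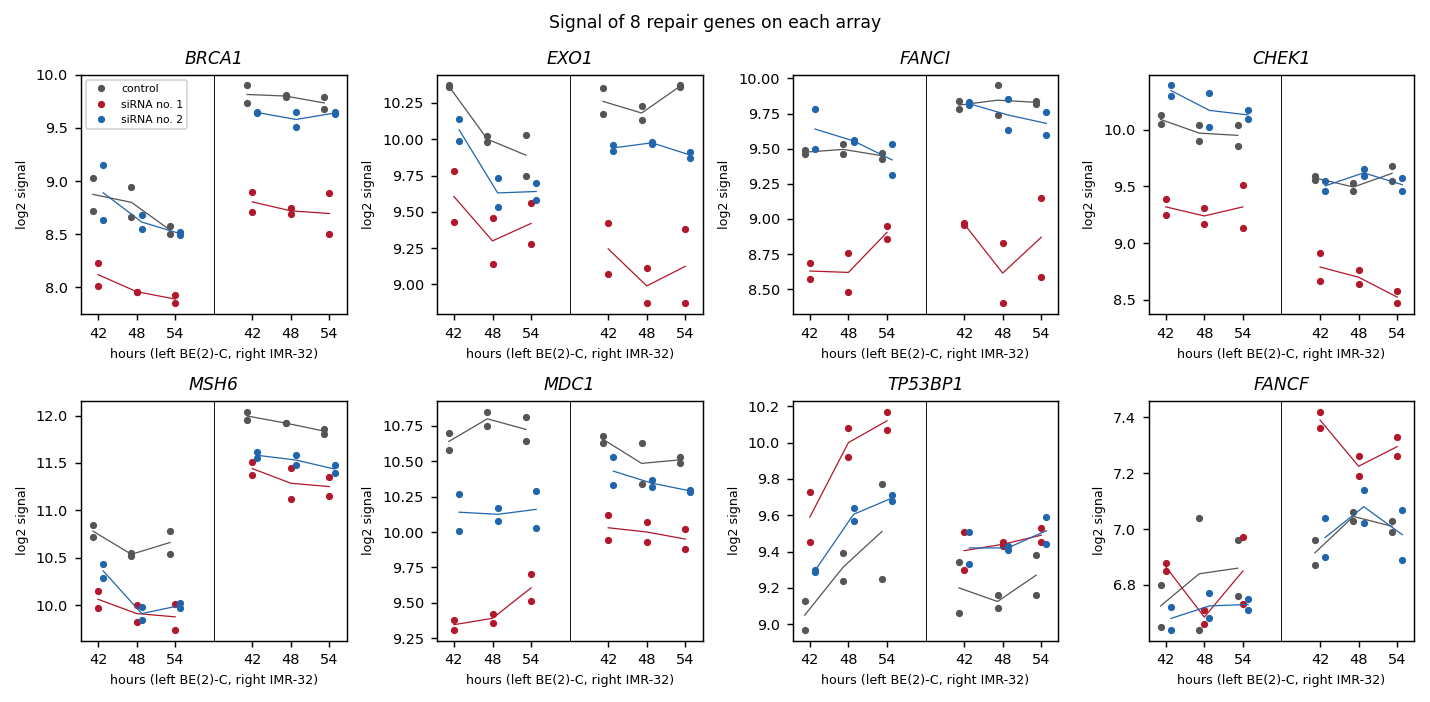
Log2 signal of 8 repair genes on each array against hours after transfection, with BE(2)-C at the left of a panel and IMR-32 at the right. Points are arrays and lines join the means of 2 replicates; BRCA1 with siRNA no. 1 (red) lay below every control array (grey) in both lines, MSH6 and MDC1 were lower with both siRNAs in both lines, and TP53BP1 was higher with siRNA no. 1.

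The Fanconi core complex did not move as one. With siRNA no. 1, FANCB, FANCC and FANCG were lower in both lines, FANCL was higher in both, FANCF was higher in IMR-32 and FANCE was not called. FANCG, a scaffold of the complex, ranged in IMR-32 from 9.91 to 10.27 (median 10.15) on control arrays, from 9.04 to 9.50 (median 9.37) with siRNA no. 1 and from 10.10 to 10.34 (median 10.23) with siRNA no. 2. The BE(2)-C ranges were wider and overlapped, at 9.45 to 10.31 (median 9.86), 8.95 to 9.60 (median 9.17) and 9.93 to 10.61 (median 10.16). FANCG changed by -0.82 ± 0.07 and -0.69 ± 0.08 with siRNA no. 1 in IMR-32 and BE(2)-C, and in BE(2)-C it rose with siRNA no. 2 by 0.33 ± 0.08 (adjusted p = 0.00533 in limma), above the control mean of its time point on 6 of 6 arrays.

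FANCL, the ubiquitin ligase of the complex, rose with siRNA no. 1 by 0.22 ± 0.07 (adjusted p = 0.0241) in BE(2)-C and by 0.19 ± 0.06 (0.0323) in IMR-32 in limma. It ranged from 8.24 to 8.52 (median 8.39) on BE(2)-C control arrays and from 8.51 to 8.69 (median 8.60) with siRNA no. 1, and in IMR-32 from 9.18 to 9.53 (median 9.44) and from 9.51 to 9.71 (median 9.60). The ranges overlapped at their edges, and the calls were lost under median scaling (adjusted p = 0.121 and 0.057) and without any of 8 arrays in BE(2)-C (0.0514 to 0.114) or 6 in IMR-32 (0.0767 to 0.203). FANCF, an adaptor of the complex, was near background and was detected on 0 control arrays of BE(2)-C. In IMR-32 it ranged from 6.87 to 7.06 (median 7.01) on control arrays, from 7.19 to 7.42 (median 7.30) with siRNA no. 1 and from 6.89 to 7.14 (median 7.03) with siRNA no. 2, and the rise of 0.32 ± 0.06 with siRNA no. 1 passed the test (adjusted p = 4.26e-05). With siRNA no. 1, FANCB and FANCC changed by -0.36 ± 0.06 and -0.37 ± 0.06 in BE(2)-C and by -0.22 ± 0.06 and -0.35 ± 0.06 in IMR-32. FANCB was dim in both lines and FANCC in BE(2)-C, whereas FANCC in IMR-32 ranged from 7.73 to 7.98 (median 7.88) on control arrays and was detected on all of them.

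FANCI, which the core complex ubiquitinates, and USP1 fell with siRNA no. 1 and were not called with siRNA no. 2. FANCI ranged in BE(2)-C from 9.43 to 9.53 (median 9.47) on control arrays, from 8.48 to 8.95 (median 8.73) with siRNA no. 1 and from 9.31 to 9.78 (median 9.54) with siRNA no. 2. In IMR-32 the ranges were 9.74 to 9.95 (median 9.83), 8.40 to 9.15 (median 8.90) and 9.60 to 9.85 (median 9.78). All arrays of siRNA no. 1 lay below all controls. The changes with siRNA no. 1 were -0.75 ± 0.07 (adjusted p = 6.88e-09 in limma) and -1.01 ± 0.08 (2.43e-12). USP1 changed by -0.64 ± 0.08 and -0.75 ± 0.06 with siRNA no. 1, and by -0.09 ± 0.08 and -0.02 ± 0.06 with siRNA no. 2.

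Of the checkpoint kinases, CHEK1 and CHEK2 fell with siRNA no. 1, and ATM was not called against the control with either siRNA. CHEK1, which restrains origin firing and mitotic entry under replication stress, ranged in BE(2)-C from 9.86 to 10.13 (median 10.04) on control arrays, from 9.13 to 9.51 (median 9.28) with siRNA no. 1 and from 10.02 to 10.39 (median 10.24) with siRNA no. 2. In IMR-32 the ranges were 9.46 to 9.68 (median 9.55), 8.47 to 8.91 (median 8.66) and 9.46 to 9.65 (median 9.56). CHEK1 was thus low on all arrays of siRNA no. 1, by -0.71 ± 0.07 (adjusted p = 9.85e-08 in limma) and -0.89 ± 0.06 (1.34e-13). With siRNA no. 2 it was above the control mean of its time point on 6 of 6 arrays of BE(2)-C (0.21 ± 0.07, adjusted p = 0.0699). CHEK2 changed by -0.64 ± 0.07 in BE(2)-C and -0.37 ± 0.06 in IMR-32 with siRNA no. 1. ATM ranged from 8.86 to 9.17 on control arrays of BE(2)-C and from 8.79 to 9.06 on those of IMR-32, and its changes against the control lay between -0.11 and 0.16.

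At the break itself, the chromatin adaptors MDC1 and TP53BP1 moved in opposite directions. MDC1, which reads phosphorylated H2AX, ranged in BE(2)-C from 10.58 to 10.85 (median 10.73) on control arrays, from 9.31 to 9.70 (median 9.40) with siRNA no. 1 and from 10.01 to 10.29 (median 10.13) with siRNA no. 2. The 3 ranges did not overlap. The falls of 1.28 ± 0.06 (2.43-fold, adjusted p = 1.16e-12 in limma) and 0.58 ± 0.07 (6.31e-06) on the log2 scale were the largest of the 33 genes for each siRNA in this line. In IMR-32, MDC1 ranged from 10.34 to 10.68 (median 10.58), from 9.88 to 10.12 (median 9.98) and from 10.28 to 10.53 (median 10.32), and changed by -0.56 ± 0.06 (1.06e-08) and -0.20 ± 0.06 (0.0364). The last call was lost without any of 10 arrays (0.0563 to 0.195).

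TP53BP1, whose protein 53BP1 shields break ends from resection, ranged in BE(2)-C from 8.97 to 9.77 (median 9.25) on control arrays, from 9.45 to 10.17 (median 10.00) with siRNA no. 1 and from 9.29 to 9.71 (median 9.60) with siRNA no. 2. The ranges overlapped, but against the control mean of their time point all 6 arrays of each siRNA were higher. In IMR-32 it ranged from 9.06 to 9.38 (median 9.16), from 9.30 to 9.53 (median 9.45) and from 9.33 to 9.59 (median 9.44). The changes were 0.61 ± 0.08 (adjusted p = 4.62e-06 in limma) in BE(2)-C and 0.24 ± 0.06 (0.00416) in IMR-32 with siRNA no. 1. For siRNA no. 2 they were 0.24 ± 0.08 (0.0652) and 0.25 ± 0.06 (0.00716). The last call was lost without IMR-32 control replicate 1 at 42 h (0.0524) and under median scaling (0.0709). NBN, the signalling subunit of the MRN complex that senses breaks, was lower with siRNA no. 2 in IMR-32, at 9.53 to 9.75 (median 9.59) against 9.79 to 9.96 (median 9.88) on control arrays, a change of -0.27 ± 0.06 (0.00124). A second NBN probe detected on 34 arrays gave -0.15 and was not called.

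MSH6, with BARD1, EXO1 and MDC1, was 1 of 4 genes called lower in all 4 comparisons with control. The share of all genes so called was not counted, and both siRNAs of a line shared its control arrays. For siRNA no. 2, the call of MDC1 in IMR-32 was lost without any of 10 arrays, and a second EXO1 probe was not called in BE(2)-C. When a call at 2 or more time points was required, BARD1 lost its call with siRNA no. 2 in BE(2)-C. EXO1 then lost its call with this siRNA in both lines. MSH6 ranged in BE(2)-C from 10.52 to 10.84 (median 10.64) on control arrays, from 9.74 to 10.15 (median 9.99) with siRNA no. 1 and from 9.84 to 10.43 (median 10.00) with siRNA no. 2. In IMR-32 the ranges were 11.81 to 12.04 (median 11.92), 11.12 to 11.51 (median 11.36) and 11.39 to 11.61 (median 11.52). Neither siRNA overlapped the controls in either line. The changes were -0.71 ± 0.07 and -0.59 ± 0.06 with siRNA no. 1 and -0.57 ± 0.07 (adjusted p = 3.59e-06 in limma) and -0.40 ± 0.06 (4.26e-06) with siRNA no. 2.

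PMS2, which acts after the mismatch is recognised, was lower with siRNA no. 2 in BE(2)-C, at 7.98 to 8.35 (median 8.29) against 8.40 to 9.01 (median 8.47) on control arrays, a change of -0.33 ± 0.08 (adjusted p = 0.014 in limma). Without 1 of 3 arrays, siRNA no. 2 at 42 h replicate 2 and at 48 h replicate 2 and control at 48 h replicate 2, its adjusted p was 0.0701, 0.0549 and 0.0727. It was not called in the other comparisons with control, and since PMS2 has near-identical pseudogene copies, its probe may not read this gene alone. UNG, which removes uracil from DNA, changed by -0.40 ± 0.07 and -0.61 ± 0.06 with siRNA no. 1 and by 0.13 ± 0.06 and 0.08 ± 0.06 with siRNA no. 2. A second UNG probe, detected on 25 arrays, was also lower with siRNA no. 1 (-0.35 and -0.46), and another, detected on 27, was not called (0.05 and 0.13). POLQ, which joins breaks through short homologies, ranged in BE(2)-C from 9.10 to 9.79 (median 9.33) on control arrays, from 8.33 to 8.73 (median 8.61) with siRNA no. 1 and from 9.41 to 9.81 (median 9.44) with siRNA no. 2. Its change with siRNA no. 1 was -0.81 ± 0.07 in both lines.

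Over the 14 genes with several probes, 12 further probes were detected on at least 50% of the arrays. In the comparisons with control their call was that of the gene's chosen probe in 43 of 48 cases and opposite in 0. The 5 other cases were those of XRCC2, EXO1 and NBN above and UNG in each line with siRNA no. 1, in which only the chosen probe was called.

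The siRNAs were then compared with each other, without use of the control arrays. Of the 33 genes, 20 were lower in BE(2)-C with siRNA no. 1 than with siRNA no. 2 and 4 were higher, beside 13.7% and 16.0% of all genes and 25.7% and 29.6% of detected genes. In IMR-32, 23 were lower and 3 higher, beside 13.1% and 15.1% of all genes and 23.4% and 26.1% of detected genes. The largest differences in BE(2)-C were those of FANCG (-1.03 ± 0.07, adjusted p = 9.31e-12 in limma), POLQ (-0.93 ± 0.08) and CHEK1 (-0.92 ± 0.07). In IMR-32 they were those of RAD51AP1 (-1.03 ± 0.07, 1.36e-14), FANCI (-0.93 ± 0.08) and FANCG (-0.91 ± 0.07). On each of these 6 gene and line pairs the 6 arrays of siRNA no. 1 lay below all 6 of siRNA no. 2. PMS2 (0.52 ± 0.07), TP53BP1 (0.37 ± 0.06), NBN (0.18 ± 0.06) and ATM (0.19 ± 0.07) were higher in BE(2)-C with siRNA no. 1, and NBN (0.38 ± 0.06), FANCF (0.29 ± 0.06) and FANCL (0.25 ± 0.06) in IMR-32. The ATM call was lost without any of 7 arrays (adjusted p = 0.0742 to 0.185) and that of NBN in BE(2)-C without any of 9 (0.0582 to 0.165). Between the siRNAs MSH6 differed by -0.14 ± 0.07 (adjusted p = 0.187) in BE(2)-C and by -0.19 ± 0.06 (0.032) in IMR-32, a call lost without any of 6 arrays (0.0806 to 0.199).

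Whether a siRNA acted differently on a gene in the 2 lines was tested over all 36 arrays. For siRNA no. 1 the effect differed for 5 of 33 genes, beside 13.0% of all genes and 22.9% of detected genes. RAD51AP1 and EXO1 fell more in IMR-32, by a difference of -0.51 ± 0.11 (adjusted p = 5.81e-04 in limma) and -0.50 ± 0.11 (0.00109), and TP53BP1 rose less there (-0.37 ± 0.10, 0.013). MDC1 fell less in IMR-32 (0.72 ± 0.09, 7.35e-08), and FANCF rose there and not in BE(2)-C, where it was not detected on control arrays (0.32 ± 0.09, 0.0151). For siRNA no. 2 the effect differed for 2 of 33, beside 4.85% of all genes and 8.67% of detected genes, namely MDC1 (0.39 ± 0.09, 0.00826) and FANCE (-0.38 ± 0.11, 0.0314). FANCE was not called against the control in either line, and its call here was lost without any of 12 arrays (adjusted p = 0.0522 to 0.119). That of TP53BP1 was lost without IMR-32 control replicate 2 at 42 h (0.0505) or BE(2)-C control replicate 2 at 54 h (0.0523), and that of FANCF without BE(2)-C control replicate 1 at 48 h (0.0693) or BE(2)-C siRNA no. 1 replicate 2 at 54 h (0.055). Under median scaling the adjusted p was 0.175 for FANCE and 0.0595 for TP53BP1.

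**Figure D4:**
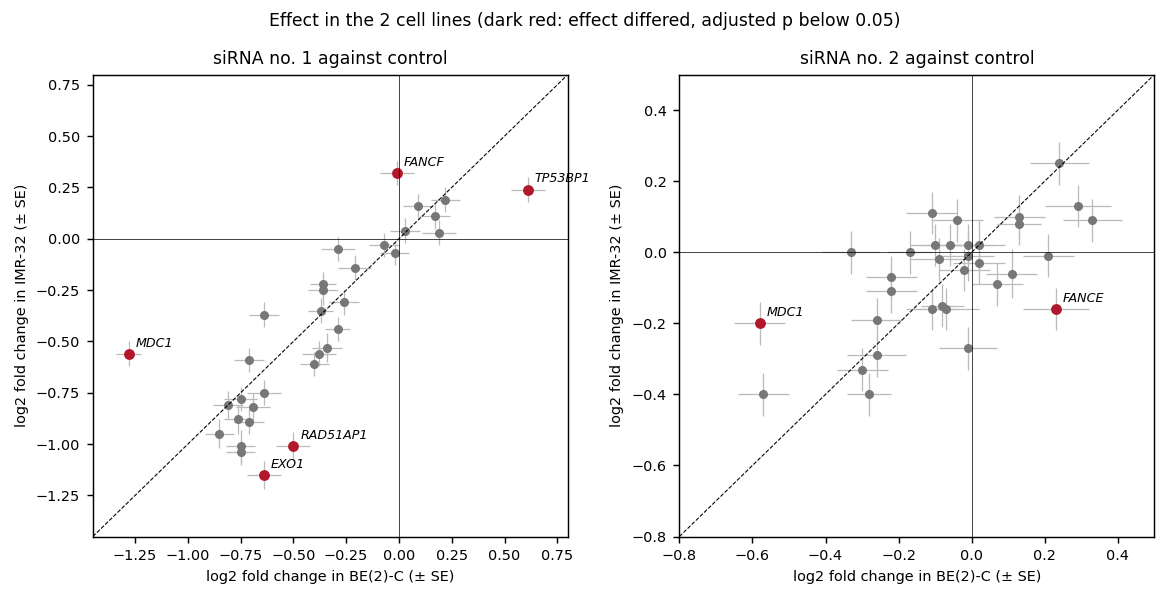
Log2 fold change against the control siRNA in BE(2)-C (x axis) and IMR-32 (y axis) for siRNA no. 1 (left) and siRNA no. 2 (right), each point a repair gene with its SE in both directions and the dashed line equal effects. Dark red marks the 5 and 2 genes whose effect differed between the lines; MDC1 is off the line in both panels.

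The effects of siRNA no. 1 were present at 42 h. With siRNA no. 1, 17, 14 and 14 of the 33 genes were lower in BE(2)-C at 42, 48 and 54 h, beside 5.60%, 6.06% and 6.89% of all genes, and 18, 18 and 20 in IMR-32, beside 4.88%, 6.17% and 6.48%. BRCA1 in IMR-32 changed by -1.01, -1.08 and -1.04 at these times, MDC1 in BE(2)-C by -1.30, -1.41 and -1.13, and MSH6 with siRNA no. 2 in IMR-32 by -0.42, -0.39 and -0.40. A change of the effect between 42 and 54 h passed the test in limma for 0 of the 33 genes in each of the 4 comparisons and for 0% of all genes, with 1 to 3 of the 33 at an unadjusted p under 0.05. With siRNA no. 2, 1, 2 and 3 genes were lower in BE(2)-C and 1, 3 and 4 in IMR-32 at the 3 times, beside 1.63%, 2.17% and 3.21% of all genes in BE(2)-C and 1.37%, 1.93% and 3.64% in IMR-32. At 2 or more of the times, 14 genes in BE(2)-C and 19 in IMR-32 were lower with siRNA no. 1, beside 5.74% and 5.47% of all genes, and 1 and 0 higher, beside 5.84% and 5.75%. With siRNA no. 2, 2 genes were lower in each line, beside 1.91% and 1.79%, and 0 higher, beside 1.13% and 1.14%.

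Within the controls, 3 genes were lower at 54 h than at 42 h in BE(2)-C, FANCG by 0.71 ± 0.14, FANCE by 0.69 ± 0.16 and POLQ by 0.53 ± 0.12 (adjusted p = 0.0261, 0.0492 and 0.0456 in limma, 2 arrays each), beside 1.94% of all genes called in either direction. The count was 0 without any of 5 of the 6 control arrays, among them replicate 1 at 54 h, and 6 without replicate 2 at 54 h. It was also 0 under median scaling and with normexp background correction. Among IMR-32 controls 0 genes differed in limma, beside 0% of all genes, with 2 of the 33 at an unadjusted p under 0.05. Without BE(2)-C control replicate 1 at 54 h, 23 genes were lower and 3 higher with siRNA no. 1 in this line, and 7 lower and 4 higher with siRNA no. 2.

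Other genes of the same pathways, from lists that do not overlap the 33, moved in part. Of detected genes, siRNA no. 1 left 21.7% lower and 24.2% higher in BE(2)-C, and 19.3% and 23.0% in IMR-32. With siRNA no. 1, 14 of 31 other homologous recombination genes were lower in BE(2)-C and 15 in IMR-32, with 2 higher in each (median -0.14 in both). They included RPA2 (-1.83 ± 0.08 and -1.23 ± 0.08) and RPA3, subunits of the protein that coats single-stranded DNA, and RMI1 (-1.50 ± 0.09 and -1.17 ± 0.07), a partner of BLM. Of 14 other Fanconi genes, BE(2)-C had 5 lower and 6 higher, and IMR-32 had 6 and 4. UBE2T, the conjugating enzyme that works with FANCL, changed by -0.82 ± 0.07 and -0.83 ± 0.06. FAAP100 was among the genes higher in BE(2)-C (0.37 ± 0.06). Of 14 other mismatch repair genes, 10 were lower and 0 higher in each line (median -0.36 and -0.58), PCNA (-0.89 ± 0.08 and -1.01 ± 0.07) and RFC subunits among them, which also serve replication.

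In 3 other repair pathways, genes lower with siRNA no. 1 were about as frequent as among detected genes (21.7% in BE(2)-C and 19.3% in IMR-32). In non-homologous end joining, BE(2)-C had 2 of 12 genes lower and 0 higher, and 3 and 1 in IMR-32. In nucleotide excision repair, BE(2)-C had 3 of 18 lower and 5 higher, and 4 and 7 in IMR-32. In base excision repair, 4 of 17 were lower and 2 higher, and 3 and 5, with the gap-filling polymerase POLB higher in BE(2)-C (0.60 ± 0.06). UNG, which was lower in both lines, was counted among the 33 genes and not in this list. Median log2 fold changes of these 3 pathways lay between -0.03 and 0.04, beside -0.37 and -0.44 for the 33 genes. The difference between lists was not tested, and the set and the lists were chosen with earlier results of these data known.

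Cell cycle genes were lower too, and with siRNA no. 2 the G2/M genes were lower more often than the repair genes. With siRNA no. 1, 23 of 29 S phase genes outside the set were lower in BE(2)-C and 26 in IMR-32 (median -0.67 and -0.87), and 46 and 50 of 54 G2/M genes (median -0.50 and -0.74), with 0 higher in each. With siRNA no. 2 the counts of lower genes were 6 and 11 of 29 and 21 and 32 of 54, beside 8 and 6 of the 33 repair genes. Of detected genes 14.5% and 13.2% were lower with this siRNA, and 21.7% and 19.3% with siRNA no. 1. The summed linear signal of the S phase list was 38959 to 41223 on BE(2)-C control arrays, 22588 to 27490 with siRNA no. 1 and 34519 to 37517 with siRNA no. 2, and in IMR-32 44545 to 45373, 21715 to 27975 and 35628 to 40327. That of the G2/M list was 80343 to 82111, 52108 to 60174 and 72728 to 73327 in BE(2)-C, and 74501 to 80583, 41738 to 56928 and 63643 to 71064 in IMR-32. The part of the cell cycle phases in the change of the repair genes was not tested.

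**Figure D5:**
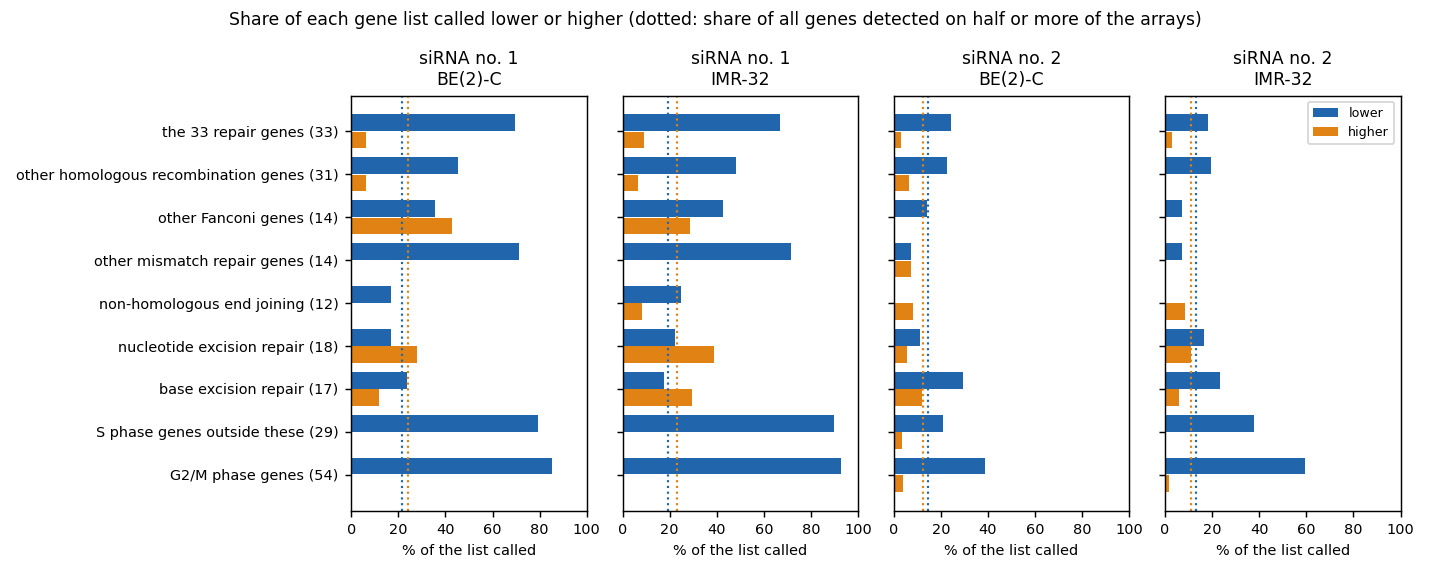
Share of each gene list that was called lower (blue) or higher (orange) against the control siRNA, in % of the genes in the list (number in brackets), for siRNA no. 1 and no. 2 in each line. Dotted lines give the shares among all detected genes; with siRNA no. 1 the bars for lower genes of the repair set, mismatch repair, S phase and G2/M are longest.

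Markers of the cell states of neuroblastoma were measured as well. The summed signal of 12 adrenergic markers was 50850 to 59168 on BE(2)-C control arrays, 60236 to 65016 with siRNA no. 1 and 64099 to 68408 with siRNA no. 2, and in IMR-32 20428 to 22487, 24681 to 26868 and 24666 to 27198. Of these 12, 4 were higher and 1 lower in BE(2)-C, and 8 and 0 in IMR-32, with siRNA no. 1. With siRNA no. 2, 6 were higher and 0 lower in BE(2)-C, and 3 higher and 4 lower in IMR-32, where CHGB (-0.42 ± 0.06) and TBX2 (-0.40 ± 0.06) fell and HAND1 (0.60 ± 0.06) and CHGA (0.56 ± 0.06) rose. Of 16 mesenchymal markers, 1 was higher and 1 lower in BE(2)-C and 0 and 1 in IMR-32 with siRNA no. 1. On at least 50% of control arrays, 5 and 4 of the 16 were detected. With siRNA no. 2 in BE(2)-C, VIM rose (0.44 ± 0.07) and CD44 fell (-0.28 ± 0.07). The sums of the mesenchymal markers were 3482 to 3909 and 3788 to 4220 in BE(2)-C and 7573 to 8798 and 6896 to 7815 in IMR-32, for control and siRNA no. 1. For siRNA no. 2 they were 4028 to 4493 in BE(2)-C and 8256 to 9164 in IMR-32. Their part in the change of the repair genes was not tested.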

How the data were processed

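RNA of both cell lines was measured on 36 Illumina HumanHT-12 arrays. The authors removed beads over 2.5 median absolute deviations from the median and deposited mean bead intensities per probe on a linear scale, without normalization, each with a detection p-value. The deposited series matrix held intensities normalized between arrays, used as an alternative. Scanner software is not given in the sources used here.

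Of 47323 probes, 3 with missing or 0 values were left out. Signals were quantile-normalized over all arrays, log2-transformed and fitted with limma 3.58.1 (R 4.3.3), with 1 coefficient per group, on the arrays of each comparison (all arrays for differences between the lines). Contrasts averaged the time points, and p-values were adjusted over all 47320 probes (Benjamini-Hochberg, threshold 0.05). No filter on dim probes was used. Detection required p under 0.01 and a signal above the array's median over probes with p over 0.98. Of all probes, 30113 had 1 symbol, 8 several and 17202 none, in the platform annotation, and symbols were updated through Entrez IDs (30074 matched). Dim genes have compressed fold changes, and the number of arrays limits the precision. The fit was tested on simulated data. Alternatives were median scaling, quantile normalization within lines, normexp background correction, the series matrix values, leaving out dim probes, a trended robust prior, another probe per gene, a call at 2 or more time points, a replicate block and leaving out each array. Chosen after seeing the data were the replicate number of each line and siRNA as a random block across time points (duplicateCorrelation) and the mean of its time points as 1 value.

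A gene was given by 1 probe, detected on most arrays. Named with values by array were, per comparison with control, the called genes with the 5 largest falls and 3 largest rises, and in the other comparisons the 3 largest differences each way. The genes of the set, the lists and the rules were chosen with earlier results of these data known. Figures used matplotlib 3.10.9 in Python 3.11.15.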

Additional observations from a re-analysis of the deposited data

Results flagged for a closer look

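Results are listed here because the effect of a siRNA differed between the cell lines by an interaction test in limma (IMR-32 minus BE(2)-C, log2). For siRNA no. 1 these were MDC1 (0.72 ± 0.09, adjusted p = 7.35e-08), RAD51AP1 (-0.51 ± 0.11, 5.81e-04), EXO1 (-0.50 ± 0.11, 0.00109), TP53BP1 (-0.37 ± 0.10, 0.013) and FANCF (0.32 ± 0.09, 0.0151). For siRNA no. 2 they were MDC1 (0.39 ± 0.09, 0.00826) and FANCE (-0.38 ± 0.11, 0.0314). MDC1, RAD51AP1 and EXO1 kept their call for siRNA no. 1 under every alternative tried, and MDC1 did for siRNA no. 2. Those of TP53BP1 and FANCF were lost without either of 2 arrays each and that of FANCE without any of 12 and in both fits that allowed for a shared replicate number across time points (0.0566 and 0.0807). Under median scaling, adjusted p was 0.175 for FANCE and 0.0595 for TP53BP1. No group of the labels held more than 2 arrays, so no test for outlying arrays within groups was made.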

How the results depend on the processing

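The counts of genes lower with siRNA no. 1 stayed at 22 to 23 in BE(2)-C and 21 to 22 in IMR-32 when each array was left out in turn. Those for siRNA no. 2 ranged from 5 to 8 and from 5 to 6, with 5 in BE(2)-C without control replicate 2 at 48 h or siRNA no. 2 replicate 2 at 54 h. Counts of higher genes ranged from 1 to 3 and 2 to 4 for siRNA no. 1 and from 1 to 4 and 0 to 1 for siRNA no. 2. The count was 1 for siRNA no. 1 in BE(2)-C without any of 7 arrays. It was 4 for siRNA no. 2 there without control replicate 1 at 54 h and 2 without any of 5 others, and 0 in IMR-32 without control replicate 1 at 42 h. Between the siRNAs 19 to 20 genes were lower and 2 to 4 higher in BE(2)-C (2 without any of 7 arrays), and 19 to 23 lower and 3 higher in IMR-32. The effect differed between the lines for 4 to 7 genes with siRNA no. 1 and for 1 to 3 with siRNA no. 2 (1 without any of 10 arrays), and BE(2)-C controls differed between 54 and 42 h for 0 to 6. By name, 22 or 23 of the 23 genes lower with siRNA no. 1 in BE(2)-C were lower without each array, and 21 or 22 of 22 in IMR-32, but 4 to 7 of the 8 lower in BE(2)-C with siRNA no. 2.

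When a gene had to be called at 2 or more time points, the lower genes were 14 in BE(2)-C and 19 in IMR-32 with siRNA no. 1 and 2 in each with siRNA no. 2, and the higher genes 1 and 0 with siRNA no. 1 and 0 in both with siRNA no. 2. Fewer arrays enter each time point. Genes higher with siRNA no. 1 in BE(2)-C were 1 with median scaling and 1 with normexp background correction. Those higher in BE(2)-C with siRNA no. 2 were 2 after quantile normalization within each cell line, 3 with the series matrix values and 2 with dim probes left out, and in IMR-32 the count was 0 with median scaling. Genes higher with siRNA no. 1 than no. 2 in BE(2)-C were 2 with normexp and 2 with the probe of the largest minimal F. The effect of siRNA no. 2 differed between the lines for 1 gene with normexp. With the probe of the largest minimal F, FANCL in IMR-32 was read from a probe detected on no array and changed by -0.04 against the control and by -0.15 against siRNA no. 2. The cause of the other changes was not tested.

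Arrays of the same replicate number and time point did not deviate together between siRNAs (r = -0.01 to 0.07 over all probes), so the numbers were not taken to pair the samples. With a replicate block, over all times or within time points, genes higher with siRNA no. 2 in BE(2)-C were 4, and the lower genes were 24 or 23 in BE(2)-C and 22 in IMR-32 with siRNA no. 1. The file headers name no chips, and the chip as a block was not run. Across the time points of 1 siRNA, deviations of the same number correlated at -0.00742 to 0.183 over detected probes, and the average over time takes these arrays as independent. In fits chosen after seeing the data, with the number within each siRNA as a random block or with its time points averaged to 1 value, 23 and 22 genes were lower in BE(2)-C and 22 and 22 in IMR-32 with siRNA no. 1, and 6 in each line with siRNA no. 2 in both fits. PALB2 and RAD54L in BE(2)-C with siRNA no. 2 lost their call in both. With averaging, 1 gene was higher in BE(2)-C with siRNA no. 1, and in both fits 2 were higher there with siRNA no. 1 than no. 2 and the effect of siRNA no. 2 differed between the lines for 1. Of 46 named pairs of gene and comparison, 12 of the 27 with control lost their call when 2 or more time points were required, and 29 kept it under all alternatives.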
